A study of Gallus gallus with 4 samples.

Results

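The end point of a conditional Arp6 knockout in chicken DT40 cells, day 6 in tetracycline against day 0 without it, was examined gene by gene over 2 of the 4 arrays of the study. DT40 is a B lymphoma line that came from an avian leukosis virus-induced tumour. In these cells genomic fragments with exons 6 to 11 of the ARP6 gene (symbol ACTR6 in the annotation) had been replaced by resistance cassettes, hisD or puro, each driven by the beta-actin promoter, and Arp6 came from a transgene that responds to tetracycline. The day 0 culture, the control, carried the same disrupted gene and had no tetracycline. The day 6 culture had tetracycline at 2 ug/ml to turn the transgene off, as had the cultures of days 2 and 4, whose arrays are given beside the comparison. Each day had 1 array, so there is no replicate error and no test between days. Precision is limited by that number of arrays. Arp6, tetracycline and time in culture cannot be told apart, because all later cultures had tetracycline. Whether the cells are 1 clone is not given in the labels. In bulk RNA, fewer cells of a type and less RNA per cell cannot be told apart either.

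Arp6 is an actin-related protein of the nucleus and a subunit of the SRCAP complex (SWR1 in budding yeast). This complex exchanges histone H2A for the variant H2A.Z in nucleosomes, and H2A.Z is found around many promoters and in heterochromatin. The study's title concerns Arp6 and the placing of chromosomes within the nucleus. DT40 cells carry a surface B cell receptor and diversify their immunoglobulin genes in culture.

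An array of this kind measures a gene with probe sets, each a group of short probes against 1 stretch of its transcript. The members of the comparison were 2690 genes for which 2 or more probe sets with that 1 symbol were bright, out of 13009 symbols on the array. A probe set was bright when its mean log2 signal over days 0 and 6 lay at least 0.5 above a floor of 45.5, which is the higher of the 2 arrays' 95th percentiles of 42 unspiked bacterial control probe sets. Signals are given after the 4 arrays were brought to the same median over the brighter probe sets, and signals below the floor were set to it before taking ratios, so such a ratio is a lower bound ("at least"). Of the genes with a bright probe set, 3827 had only 1 and were not used. Levels of different probe sets are not comparable with each other, and only ratios within a probe set are compared. Probe sets of a gene read the same 2 RNA samples, so their agreement bears on probe error and says nothing of the spread between cultures.

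Probe sets of 1 gene lay within 1 log2 unit of each other for most genes. The range of the log2 ratio between the probe sets of a gene had a median of 0.46 and a 90th percentile of 1.20. It narrowed with signal, from a median of 0.57 in the dimmest 673 genes to 0.33 in the brightest 673. Probe sets agreed for 2266 genes, 84.2% of the 2690, meaning that all were at least 2-fold apart from day 0 in the same direction or all lay within 1 log2 unit of each other. They disagreed for the other 424.

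Every bright probe set was at least 2-fold higher at day 6 for 75 genes, 2.79% of those examined, and at least 2-fold lower for 63, 2.34%. Asking for this removed most single calls. A probe set at least 2-fold higher was found in 384 genes, and in 75 of them, 19.5%, all the others went along. A probe set at least 2-fold lower was found in 285 genes, of which 63, or 22.1%, had all probe sets 2-fold lower. The 138 genes rest on 306 bright probe sets, and 62 of them had further probe sets that were too dim to enter. A probe set's cluster is given by its name up to the second point. Bright probe sets carried 2 or more cluster names in 58 of the 75 higher and 42 of the 63 lower genes. The other called genes, DCBLD1 and BCL2 among them, rest on probe sets of 1 cluster, and whether those read separate stretches was not examined. Among the higher genes 28 had a probe set below the floor at day 0, and among the lower genes 36 had one below it at day 6, so their ratios are in part lower bounds. The split depends on how the arrays are brought together: 54.3% of the calls were higher here, 11.9% in the deposited values without scaling (30 higher, 222 lower), 19.7% after scaling to the median of all probe sets (38 and 155) and 71.4% after scaling to the 27 spiked controls (110 and 44). The median log2 ratio of the 2690 genes was 0.03 here, -0.44 without scaling, -0.29 with the median of all probe sets and 0.20 with the spiked controls. All directions below are therefore relative to the median gene. The gene lists below were chosen with earlier results of these data known. Their shares and medians thus describe the lists and are no independent evidence about them.

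**Figure D1:**
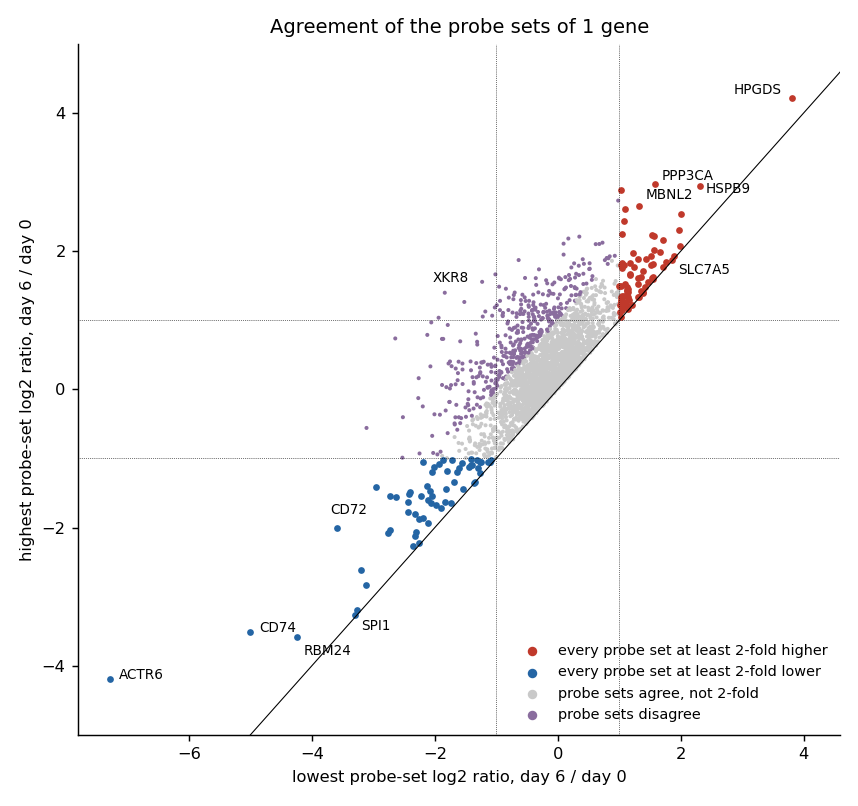
Lowest against highest log2 ratio (day 6 over day 0) among the bright probe sets of each of 2690 genes, with dotted lines at 2-fold and a diagonal where all probe sets of a gene are equal. The 75 red points have every probe set at least 2-fold higher and the 63 blue points every probe set at least 2-fold lower, while the purple points above the diagonal are the 424 genes whose probe sets disagree.

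The targeted gene came first among the lower genes. The signals of one ACTR6 probe set were 7086 on the day 0 array and 4.32, 29.7 and 8.39 on the arrays of days 2, 4 and 6, all 3 below the floor, which is at least 156-fold lower at day 6. The other read 7002 at day 0 and 318, 331 and 383 afterwards, 18.3-fold lower at day 6 and still above the floor. Both were far below their own day 0 signal on every array with tetracycline. Where either lies relative to the replaced exons is not known here, so neither probe set checks the deletion itself.

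Other subunits of the complexes that handle H2A.Z showed no change of this size. Of 11 genes of the SRCAP, NuA4, INO80 and H2A.Z list with 2 or more bright probe sets, ACTR6 was lower and none was higher. This is 9.09% and 0%, against 2.34% and 2.79% of all genes, and the only call is the targeted gene itself. In a list as short as this, 1 call alone exceeds the share of all genes, so such a share is no result about the list. This holds for single calls in the short lists below as well. MRGBP, a NuA4 subunit, had a median log2 ratio of -1.06, but its 3 probe sets ran from -1.15 to -0.25. YEATS4, the acetyl-lysine reader shared by SRCAP and NuA4, stood at -0.69, ACTR5, the actin-related protein of INO80, at -0.16, and ANP32E, a chaperone that removes H2A.Z, at 0.66 with probe sets that disagreed. The list's median was -0.16, against 0.03 for all genes. With the spiked controls it was 0.01, against 0.20 for all genes.

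Of 16 B lineage transcription factors with 2 or more bright probe sets, 2 were lower (12.5%) and 1 was higher (6.25%), against 2.34% and 2.79% of all genes. SPI1 encodes PU.1, an ETS-family factor needed for myeloid and early B cell development in mice. Its first probe set read 438, 195, 56.7 and 24.2 at days 0, 2, 4 and 6, and its second 449, 175, 66.6 and 1.31. Both fell on each array in turn and ended below the floor, at least 9.62-fold and at least 9.88-fold lower at day 6. BCL6, a repressor that germinal centre B cells depend on, read 242, 107, 46.0 and 28.6 with one probe set and 130.5, 92.7, 49.2 and 2.05 with the other, at least 5.33-fold and at least 2.87-fold lower. KLF13, a Krüppel-like factor, went the other way, with 3 probe sets 2.96-fold, at least 3.09-fold and 4.04-fold higher. The other 13 were not called. The median of the list was -0.27, against 0.03 for all genes. With the spiked controls it was -0.10, against 0.20 for all genes, and without scaling -0.74, against -0.44. Among the members that did not pass, chosen after their values were seen, BCL11A had a median of -1.41 (3 probe sets, -1.47 to -0.53) and IKZF1, the Ikaros gene, -0.89. TCF3, the E2A gene, stood at 1.02 with probe sets from 0.71 to 1.53, and POU2AF1, an octamer coactivator of B cells, at -0.41. IKZF3 had probe sets of -2.12 and 0.79 and gives no answer.

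Of 6 genes of antigen presentation, 2 were lower (33.3%) and 1 was higher (16.7%), against 2.34% and 2.79% of all genes. The other 3 were within 2-fold. CD74 encodes the invariant chain that guides MHC class II molecules to the peptide-loading compartment. Its 3 probe sets read 3110.4, 1046 and 1487 at day 0 and 96.3, 91.4 and 76.0 at day 6. Each fell at day 2, again at day 4 and again at day 6, where they were 32.3-fold, 11.4-fold and 19.6-fold lower while still above the floor. WDFY4, a BEACH-domain protein that dendritic cells of mice need for cross-presentation, read 414, 192, 77.4 and 3.80 with one probe set and 436, 208, 106 and 4.21 with the other, at least 9.10-fold and at least 9.59-fold lower. CTSD, the lysosomal protease cathepsin D, was higher, 2.23-fold and at least 2.45-fold. The other 3 genes were PDIA3 at -0.63 and CANX, the chaperone calnexin, at 0.40, both with probe sets that agreed, and CTSB at -0.15 with probe sets that did not. The list's median was -0.39, against 0.03 for all genes. With the spiked controls it was -0.22, against 0.20 for all genes, and without scaling -0.86, against -0.44.

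The B cell receptor and its signalling held genes at both extremes. CD72, an inhibitory coreceptor of B cells, read 776, 408, 123 and 64.3 with one probe set and 183, 99.2, 64.7 and 14.8 with the other, 12.1-fold and at least 4.03-fold lower at day 6. RASGRP3, the diacylglycerol-activated exchange factor that passes the receptor's signal to Ras, read 231, 86.8, 157 and 40.7 with one probe set, at least 5.09-fold lower, and was at least 4.82-fold lower with the other. Its course was not even, since both probe sets were lower at day 2 than at day 4. SYK, the tyrosine kinase next to the receptor, read 1331, 839.8, 958 and 429 with one probe set and 439.5, 237, 146 and 124 with the other, 3.10-fold and 3.55-fold lower. PPP3CA, the catalytic A-alpha subunit of the phosphatase calcineurin, had 5 bright probe sets, and all 5 were higher, with log2 ratios from 1.59 to 2.98, the highest being 7.87-fold. The brightest of them at day 6 read 192, 375, 617 and 1509.5 on the 4 arrays. These were the 3 lower genes (15.8%) and the 1 higher gene (5.26%) of 19, against 2.34% and 2.79% of all genes. The regulatory calcineurin subunit PPP3R1 stood at -0.85 with both probe sets between -0.93 and -0.78, on the other side of day 0 but short of 2-fold. VAV3, an exchange factor for Rac, missed the rule narrowly, with its weakest probe set at -0.99. PRKCB, protein kinase C beta, had probe sets from -1.09 to -0.52. PTPRC, the phosphatase CD45, stood at 0.59 and PLCG2 at 0.34. The median of the 19 was -0.06, against 0.03 for all genes, and 0.11 with the spiked controls, against 0.20.

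Of the lower genes in no list, several named here have a known role in leukocytes, a trait by which they were picked out after their values were seen. Their number is therefore no measure of such genes, and LY75, the endocytic receptor DEC-205 of dendritic and other white blood cells, was 2.52-fold and at least 2.48-fold higher. SWAP70, a Rac-binding protein first isolated from class-switching B cells, read 861, 626, 447 and 197 with one probe set, 4.36-fold lower, and was at least 5.01-fold lower with the other. EVI2A, found at a retroviral integration site in mouse leukaemia, was 9.17-fold and at least 6.14-fold lower. The 3 probe sets of the locus LOC396098, for which the RefSeq table gives the synonym Bu-1, the alloantigen by which chicken B cells are recognised, read 2119.9, 2525 and 1119 at day 0 and 275, 292 and 157 at day 6. They were 7.71-fold, 8.65-fold and 7.13-fold lower. That locus, LY75 and the next 3 genes fall outside the naming rule. PLD4, an endolysosomal nuclease of the phospholipase D family, was 4.31-fold and at least 3.04-fold lower. LPXN, the paxillin relative leupaxin of leukocytes, had 3 probe sets from 2.03-fold to 3.31-fold lower. TRIB2, a pseudokinase, was 3.43-fold and 5.39-fold lower.

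Of the G protein coupled receptors with 2 or more bright probe sets, 2 of 7 were lower, against 2.34% of all genes. GPR174, a lysophosphatidylserine receptor of lymphocytes, was 3.65-fold and at least 4.56-fold lower. GPR157 was at least 3.09-fold and at least 5.40-fold lower. The other 5 included P2RY8, with probe sets of -1.02 and -0.78, and 4 genes from 0.43 to 0.78, so the list's median was 0.43 although no member was called higher.

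**Figure D2:**
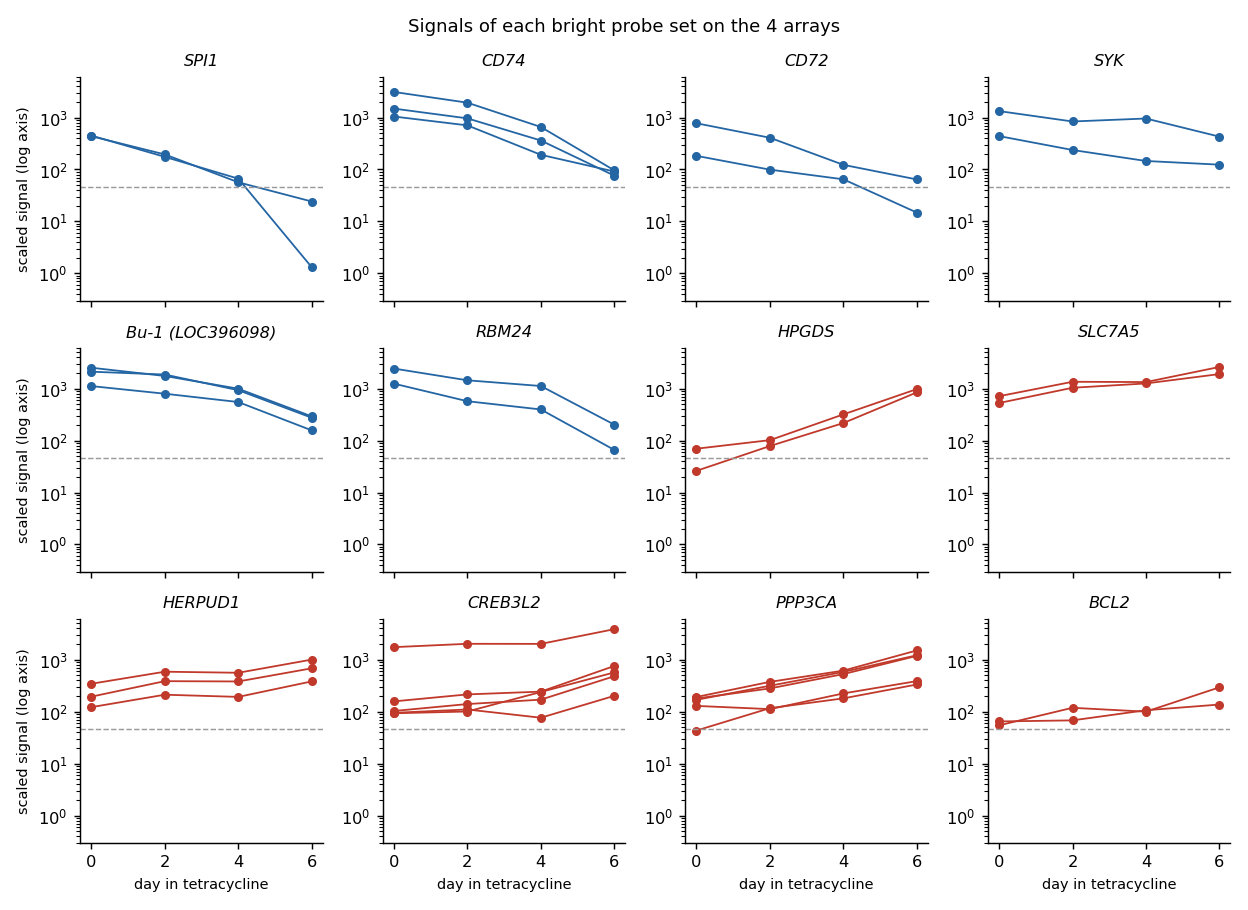
Scaled signal (log axis) of each bright probe set at days 0, 2, 4 and 6 for 12 genes, lower genes in blue and higher genes in red, 1 line per probe set, with the floor of 45.5 dashed. The 3 CD74 lines run downward together, from between 1046 and 3110.4 to between 76.0 and 96.3, and the 5 PPP3CA lines all end above their day 0 signal.

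Of 53 splicing factors and RNA-binding proteins 2 were lower and 1 was higher, 3.77% and 1.89%, near the 2.34% and 2.79% of all genes. RBM24, a splicing regulator best known from muscle, read 2436, 1447, 1124 and 203 with one probe set and 1248, 572, 397 and 66.1 with the other, log2 ratios of -3.59 and -4.24, the latter 18.9-fold lower. CELF2, a splicing and mRNA stability factor, was 2.19-fold and 2.45-fold lower. MBNL2, a muscleblind splicing factor, was below the floor at day 0 with all 4 of its bright probe sets, which read 114 to 285 at day 6 and were at least 2.51-fold to at least 6.27-fold higher. The list as a whole had a median of -0.23, with 10 of 53 genes above the median of all genes. The list's median was -0.06 with the spiked controls, against 0.20 for all genes, and -0.70 without scaling, against -0.44. Its SR proteins and heterogeneous nuclear ribonucleoproteins stayed within 2-fold, for example SRSF5 at -0.34, SRSF3 at -0.26, HNRNPA1 at -0.31 and HNRNPU at -0.22. None of 22 RNA helicases was called, and their median was -0.01.

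Of 40 genes of actin and adhesion 3 were lower, against 2.34% of all genes, and none was higher. MYO10, an unconventional myosin of filopodia, read 509, 258, 331 and 103 with one probe set, 4.95-fold lower, and was 4.17-fold lower with the other. MYO1G, a myosin of blood cells, was 2.30-fold and at least 3.12-fold lower. ARPC1B, the Arp2/3 subunit that predominates in blood cells, was 2.39-fold and 2.32-fold lower. ACTR2 and ACTR3, the actin-related proteins of that complex, stood at -0.84 with probe sets that disagreed and at -0.55. TWF2, an actin-binding twinfilin outside the list, was 2.07-fold and 4.58-fold lower, and was chosen after its values were seen. Beta-actin had a median of 0.03 with probe sets from -0.61 to 1.14. The list's median was -0.08, against 0.03 for all genes, and 0.09 with the spiked controls, against 0.20.

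Genes of survival and growth arrest were called in both directions, 2 higher and 3 lower of 20, which is 10.0% and 15.0% against 2.79% and 2.34% of all genes. BCL2, which protects cells from apoptosis, read 54.5, 119, 99.9 and 294 with one probe set and 64.8, 67.9, 107 and 137 with the other, 5.39-fold and 2.12-fold higher. MCL1, which has a like role, was lower with its 3 bright probe sets, 2.04-fold, 2.55-fold and 3.63-fold. The 2 relatives thus stood on opposite sides of day 0. TNFRSF1B, a receptor for tumour necrosis factor, was higher with 3 probe sets, 2.13-fold to 2.37-fold, and it had reached most of this by day 2. BTG2, an antiproliferative gene that p53 induces in mammals, was 2.08-fold and 2.39-fold lower. CCNG2, an atypical cyclin linked to arrest, read 842, 308, 482 and 320.4 with one probe set and 215, 117, 118 and 101 with the other, 2.63-fold and 2.13-fold lower. PDCD4, an inhibitor of translation initiation and one of the brightest lower genes, read 2963, 2296, 2144 and 1168 with one of its 3 probe sets, and the 3 were 2.54-fold to 3.21-fold lower. BCL2L1, the BCL-X gene, stood at -0.54 and CDKN1B, the p27 gene, at 0.56, both short of 2-fold.

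Of 19 cyclin and cyclin-dependent kinase genes 1 was higher and 2 were lower, 5.26% and 10.5% against 2.79% and 2.34% of all genes. The higher gene was CCNY, and the lower ones were CDK2AP1 and CCNG2, the latter given above. CCNY, a membrane-bound cyclin, read 67.2, 70.1, 52.1 and 266 with one probe set and 124, 200.5, 154 and 522 with the other, 3.96-fold and 4.21-fold higher, most of it between days 4 and 6. CDK2AP1, a CDK2-binding protein, was 2.27-fold and 3.47-fold lower. CCND2 stood at -0.12, CCNE2 at -0.37 and CDK6 at 0.58. Of 32 genes of mitosis and 19 of DNA replication none was called, with medians of 0.06 and -0.16. RAD50, a component of the MRE11 break-repair complex, was 2.67-fold and at least 2.15-fold lower, while MRE11 stood at 0.38. RAD50 was the 1 lower gene of 19 in DNA repair, 5.26% against 2.34% of all genes. ADA, adenosine deaminase, one of the brightest lower genes, read 2289, 1940.3, 2003 and 582 with one probe set and 487, 603, 606 and 153 with the other. It was near its day 0 level until day 4, then 3.93-fold and 3.19-fold lower.

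The amino acid response held 3 of the higher genes. ATF4 is the transcription factor that cells translate when amino acids run short or the endoplasmic reticulum is strained, and its targets include amino acid transporters and aminoacyl-tRNA synthetases. SLC7A5, the leucine transporter LAT1, read 715, 1355, 1338 and 2615 with one probe set and 528, 1039, 1258 and 1907 with the other, 3.66-fold and 3.61-fold higher. IARS, which charges tRNA with isoleucine, read 1929, 2842, 3222 and 3977 with the brightest of its 3 probe sets, and the 3 were 2.06-fold, 2.46-fold and 4.76-fold higher. STC2, the secreted glycoprotein stanniocalcin 2, was below the floor at day 0 and at least 2.33-fold and at least 3.92-fold higher. These were 3 of the 14 listed ATF4 targets, against 2.79% of all genes, and none was lower. This list too was chosen with earlier results of these data known. The median of the 14 was 0.77, with 13 above the median of all genes. Without scaling it was 0.31, against -0.44 for all genes, and with the spiked controls 0.94, against 0.20. ATF4 itself stood at 0.77 with both probe sets between 0.74 and 0.80, SLC38A2, a neutral amino acid transporter, at 0.76 and MTHFD2, a mitochondrial folate enzyme, at 1.07. SLC7A11, the cystine transporter, had probe sets of 0.73 and 2.12, which disagree.

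The synthetases were uneven. Of 13, IARS was called, 7.69% against 2.79% of all genes. GARS stood at 1.10 with its probe sets from 0.91 to 1.37, CARS at 0.78, YARS at 0.72 and TARS at 0.63. EPRS at 0.05, LARS at 0.13 and QARS at -0.45 did not follow them. Of 10 genes of serine, one-carbon and methionine metabolism none was called, MTHFD2 and MTHFD1L (0.96) being the nearest, and the median of the 10 was 0.03. PCCA, the alpha subunit of propionyl-CoA carboxylase in the breakdown of branched-chain amino acids, read 103, 198, 270.0 and 462 with one probe set, 4.48-fold higher, and was 3.30-fold higher with the other. It was the 1 called of 13 genes of the citrate cycle and branched-chain breakdown, 7.69% against 2.79% of all genes.

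Among 63 solute carriers 4 were higher and 1 was lower, 6.35% and 1.59% against 2.79% and 2.34% of all genes. SLC22A16, an organic cation and carnitine transporter, was 4.02-fold and 5.80-fold higher. SLC1A4, a transporter of alanine, serine and cysteine, read 447, 643, 845 and 1366 with one probe set, 3.06-fold higher, and was 2.90-fold higher with the other. SLC44A1, a choline transporter, and SLC7A5 were the other two. SLC17A9, the vesicular nucleotide transporter, was 6.18-fold and at least 2.93-fold lower.

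Of 55 genes for folding and secretion in the endoplasmic reticulum, 3 were higher, 5.45% against 2.79% of all genes, none was lower and 39 lay above the median of all genes. CREB3L2, a membrane-bound transcription factor of secretory cells, had 5 bright probe sets. The brightest read 1746, 2025, 2018 and 3874, and the 5 were 2.12-fold to 6.13-fold higher. In 4 of the 5, most of the difference came after day 4. HERPUD1, a membrane component of the degradation pathway for misfolded proteins, read 345, 588, 561 and 1005 with the brightest of 3 probe sets, and the 3 were 2.92-fold to 3.51-fold higher. SEC61A2, an isoform of the translocation channel, was 2.21-fold and at least 2.32-fold higher. Close below the rule were EDEM1 (median 1.15) and EDEM3 (1.17), mannosidase-like proteins of the same degradation pathway, and P4HB (1.01), a disulfide isomerase. At the other end the lowest gene of the list had a median of -1.76, and was not called because its probe sets were not all 2-fold lower. HYOU1, an endoplasmic reticulum chaperone, stood at -0.07, PDIA4 at 0.33, XBP1 at 0.33 and DERL3 at -0.02. The list's median of 0.30 was -0.16 without scaling, when that of all genes was -0.44. CKAP4, an anchor of endoplasmic reticulum sheets outside the list, read 271, 336, 426 and 859 with one probe set, 3.17-fold higher, and was 3.97-fold higher with the other.

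HPGDS, a glutathione-dependent enzyme that makes prostaglandin D2, was the highest of the 2690 genes. It read 69.7, 102, 319 and 979.9 with one probe set and 26.1, 78.5, 218 and 848 with the other, 14.1-fold and at least 18.7-fold higher. Both probe sets rose on each array in turn. BACH1, a haem-regulated repressor of antioxidant genes, read 177, 471, 879 and 1308 with the brightest of its 3 probe sets, 7.39-fold higher, and was at least 6.43-fold and at least 2.03-fold higher with the others. NFE2L1, a transcription factor of the endoplasmic reticulum membrane that drives proteasome genes in mammals, read 1339, 1579, 1751 and 2971 with one probe set, and its 2 were 2.22-fold and 2.53-fold higher. These 3, all higher, were the called genes of 20 on redox and glutathione, 15.0% against 2.79% of all genes. NFE2L2, the NRF2 gene, stood at 0.28, GCLC, which starts glutathione synthesis, at 0.08 and GCLM, its partner subunit, at -0.23. None of 8 proteasome genes was called and their median was -0.06.

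Other higher genes came from lists of the lysosome, nutrient signalling, vesicle traffic, kinases and heat shock. GLB1, the lysosomal beta-galactosidase, was 2.67-fold and 2.79-fold higher. With cathepsin D it made 2 of 13 lysosomal genes, 15.4% against 2.79% of all genes. FNIP2, a folliculin partner, was 2.46-fold and 2.89-fold higher, GRB10, an adaptor that mTORC1 stabilises, 2.00-fold and at least 2.81-fold, and PRKAG2, a regulatory subunit of AMP-activated kinase, 2.04-fold and 2.41-fold. They made 3 of 18 genes of the mTOR list, 16.7% against 2.79% of all genes. The list's median was -0.08, against 0.03 for all genes. MTOR, RICTOR and RPTOR stood at -0.05, -0.11 and -0.10, the last with probe sets that disagreed. Vesicle traffic gave 2 higher of 30 genes, 6.67% against 2.79% of all genes. SNX16, a sorting nexin, was at least 2.05-fold and at least 2.83-fold higher, and VPS50, a subunit of a recycling tether, 2.05-fold and 2.06-fold. RAB43, a Golgi Rab GTPase, was 2.06-fold and at least 3.37-fold higher, the 1 higher of 16 Rab genes, 6.25% against 2.79% of all genes. MAP3K5, the stress kinase ASK1, was 2.43-fold and at least 2.07-fold higher. It was the 1 higher of 17 in the kinase and phosphatase list, 5.88% against 2.79%. Of the heat shock genes, HSPB9, a small heat shock protein, was the 1 higher of 28, 3.57%, near the 2.79% of all genes. It read 147, 200.1, 427 and 1132 with one probe set, 7.73-fold higher, and was 4.96-fold higher with the other. AHSA2, an HSP90 cochaperone, was the 1 lower, 2.15-fold and at least 2.08-fold, and HSP90AA1 stood at 0.14.

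Several of the furthest and brightest higher genes belong to no list. FAM177A1 read 673, 1102, 1399 and 2645 with one probe set and was 3.93-fold and 4.97-fold higher. SECISBP2L, a relative of the selenocysteine insertion protein, had 3 probe sets that agreed closely, 3.70-fold, 3.70-fold and 3.81-fold higher. IMPA2, an inositol monophosphatase and one of the brightest, read 1282, 1764, 2112 and 3158 with one probe set, 2.46-fold higher, and was 3.69-fold higher with the other. The mitochondrial AAA protein VWA8 was 3.39-fold, at least 3.40-fold and 3.61-fold higher. CDH11, a cadherin, was 3.27-fold and 3.41-fold higher, and ABHD4, a lipase of phospholipid turnover, 2.96-fold and 4.64-fold. PLPPR5, a phospholipid phosphatase-related protein, was below the floor with both probe sets at days 0 and 2 and at least 2.93-fold and at least 3.04-fold higher at day 6.

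**Figure D3:**
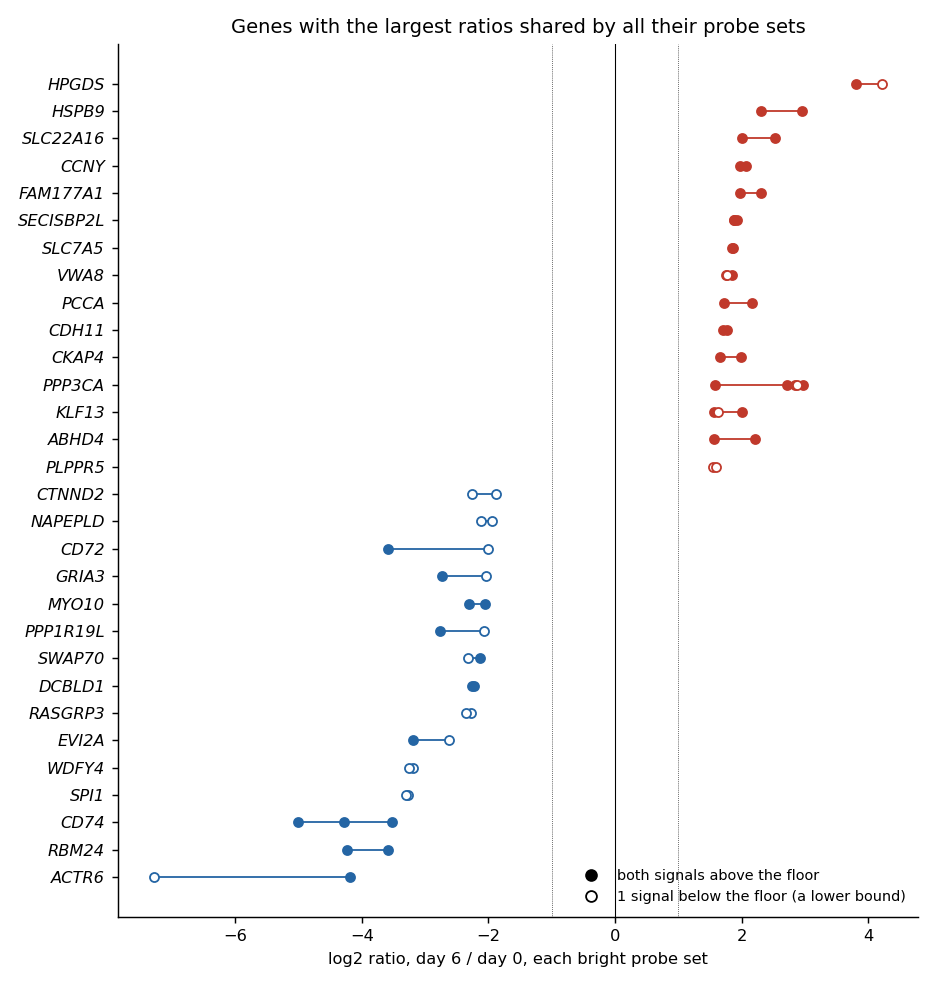
Log2 ratio (day 6 over day 0) of every bright probe set of the genes furthest from day 0 by their weakest probe set, with open markers where 1 signal was below the floor and the ratio is a lower bound. HPGDS heads the higher genes and ACTR6 the lower ones, and the distance between the markers of a row is the difference between probe sets of that gene.

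The remaining lower genes furthest from day 0 were of mixed kinds. PPP1R19L, a regulatory subunit of protein phosphatase 1, was 6.79-fold and at least 4.22-fold lower. With PPP3CA it made the 1 lower and 1 higher of 21 protein phosphatase genes, 4.76% each against 2.34% and 2.79% of all genes. DCBLD1, a membrane protein in no list, was 4.66-fold and 4.80-fold lower. GRIA3, a glutamate receptor subunit best known from neurons, was at least 4.11-fold lower with one probe set and 6.64-fold with the other. NAPEPLD, which makes N-acylethanolamines, was at least 3.83-fold and at least 4.32-fold lower, and CTNND2, a delta-catenin, at least 3.69-fold and at least 4.79-fold. For NAPEPLD and CTNND2 every bright probe set ended below the floor, so their ratios are bounds throughout. Another CTNND2 probe set, too dim to enter, did not follow and read 49.9 at day 0 and 58.9 at day 6.

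The other groups with no call are given with their medians where they hold 3 or more genes. At 2.79% and 2.34% of all genes called, a group of this size holds few calls or none, so a count of 0 is no result about a group. None was called among 26 cytoplasmic ribosomal proteins (median 0.16), 11 mitochondrial ribosomal proteins (-0.03), 19 respiratory chain genes (0.06), 16 translation factors (0.01) and 24 nucleolar genes (-0.12). None was called among 52 chromatin remodelers and histone modifiers (-0.05), 45 nuclear pore and lamina genes (0.05) and 15 genes of cohesin, condensin and chromosome architecture (-0.04). In the last group CTCF, an insulator-binding protein, was lowest with probe sets of -1.12 and -0.70. In the lamina group LMNB1 stood at -0.42 and LBR, the lamin B receptor, at -0.08. The 15 genes of cholesterol and fatty acid synthesis (0.30) and the 7 of glycolysis (0.29) gave no call either. Nor did 8 genes of immunoglobulin diversification (-0.17), 12 of NF-kappa B and interferon response (-0.13) and 22 kinesin, dynein and tubulin genes (0.08). Ubiquitin conjugating enzymes and deubiquitinases (34 genes, 0.05) and zinc finger proteins (34 genes, -0.11) held none. The same held for 16 genes of protein kinase C, calcium and ion channels (-0.04). Of the chromatin genes 44 of 52 had probe sets that agreed, EHMT1 with -1.44 and -0.70 and SETD7 with 0.83 and 1.14 among those nearest to 2-fold. Differences under 2-fold were not counted, and with 1 array a side they have no error to be set against.

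**Figure D4:**
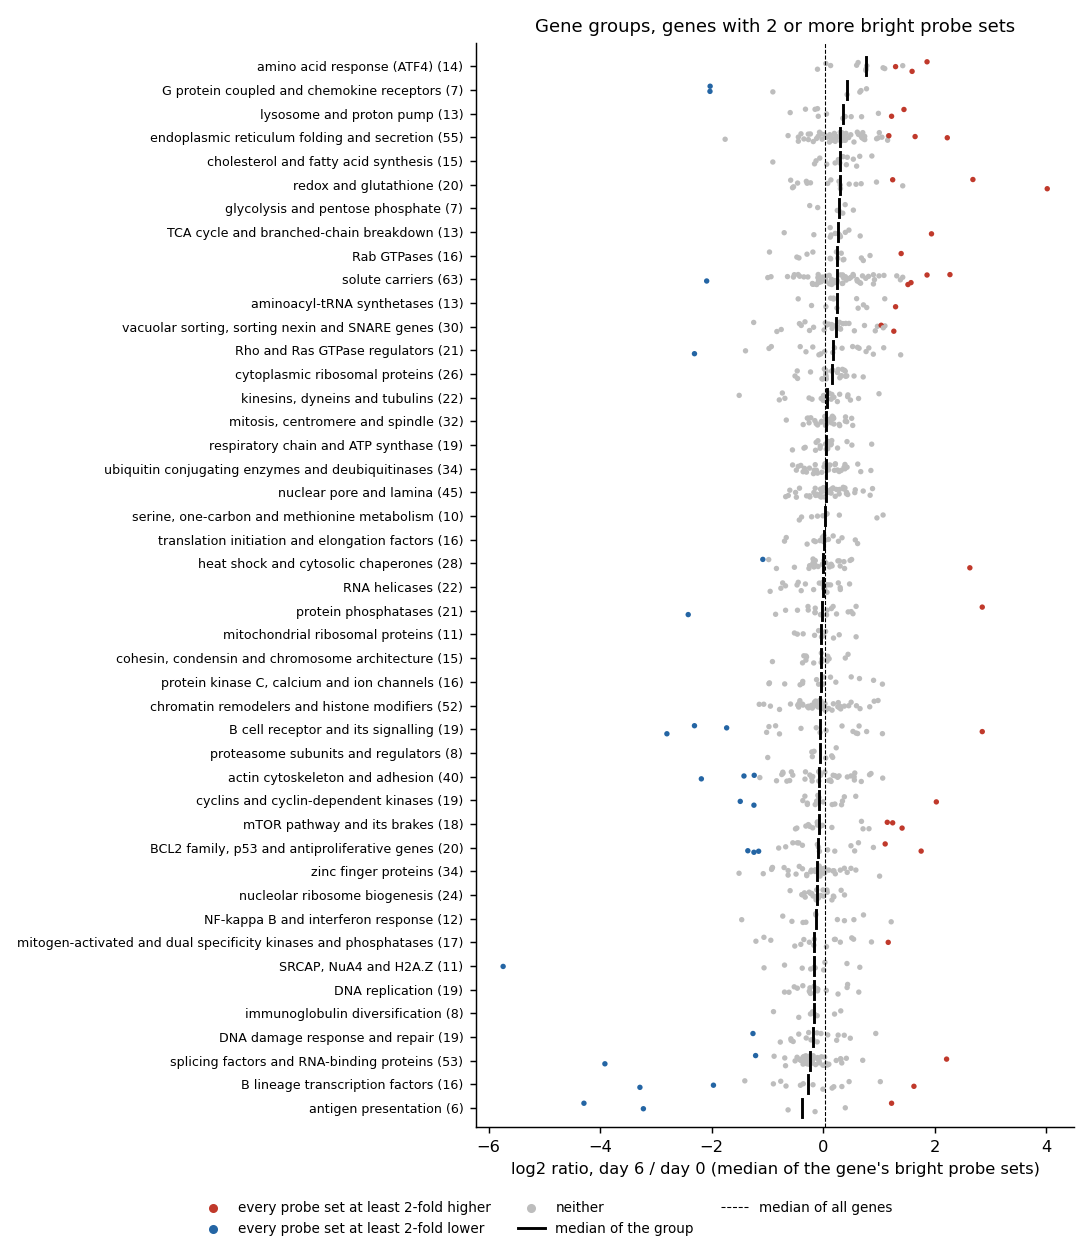
Log2 ratio (day 6 over day 0) of every gene in 45 groups, each point the median of a gene's bright probe sets, with the number of genes in parentheses and the group's median as a bar. The amino acid response lies furthest right with a median of 0.77 and antigen presentation furthest left with -0.39, and groups such as ribosomal proteins and nuclear pore genes have no coloured point.

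For 9 genes, 0.335% of those examined, probe sets lay at least 2-fold from day 0 in opposite directions. XKR8, a lipid scramblase, had probe sets of 1.40 and at most -1.84. GRK6, a G protein coupled receptor kinase, ran from -1.94 to 1.04, AP1G1, a clathrin adaptor subunit, from -1.23 to 1.56, COLGALT1, a collagen galactosyltransferase, from -1.52 to 1.27 and TNRC18 from -1.01 to 1.66, with bounds at both ends for GRK6 and TNRC18. The probe set at either end, read alone, would have placed its gene on one side. AP1G1, GRK6 and COLGALT1 each had 1 more bright probe set, at 0.14, -0.93 and -0.66, none of them 2-fold from day 0.

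The rule's threshold ran through a continuous range of values. Just inside it were GRB10 and MINPP1, whose weakest probe sets stood at 1.00 and 1.02, and just outside PLA2G15 and CADNL at 0.99 each. On the lower side TRIM3 and ETFRF1 (1.01 and 1.02 below day 0) were inside, and MTMR1 and VAV3 (1.00 and 0.99 below) were outside.

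The genes called at day 6 were mostly on the same side at days 2 and 4. The 3 comparisons share the day 0 array, so these values are set side by side and no likeness between them is measured. The 75 higher genes had median log2 ratios of 0.45, 0.78 and 1.42 at days 2, 4 and 6. Every bright probe set was at least 2-fold higher for 1 and 11 of them at days 2 and 4, and for 2 and 18 of all 2690 genes. The 63 lower genes had medians of -0.56, -0.76 and -1.71. Every bright probe set was at least 2-fold lower for 6 and 22 of them. That count was not made over all genes, so 6 and 22 have no share to be read against and are no result about these genes. All 2690 genes stayed at 0.02, 0.02 and 0.03. Day 4 over day 2 uses neither array of the ratio, but the floor and the bright probe sets were set on days 0 and 6. In it 62 of the 75 higher genes, 82.7%, lay above 0 against 48.9% of all genes. Of the 63 lower genes 46, 73.0%, lay below 0 against 51.0%. Of the higher genes 28 had a probe set below the floor at day 0, and of the lower genes 36 had one below it at day 6. A signal at the floor on day 2 cannot be lower on day 4, and one at the floor on day 4 cannot have risen. The shares are therefore no independent check of the calls. ENPP2, the autotaxin gene, was an exception chosen after its values were seen: its probe sets read 191, 176, 460.0 and 92.1, and 266, 263, 478 and 111, highest at day 4 and 2.07-fold and 2.39-fold lower at day 6.

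**Figure D5:**
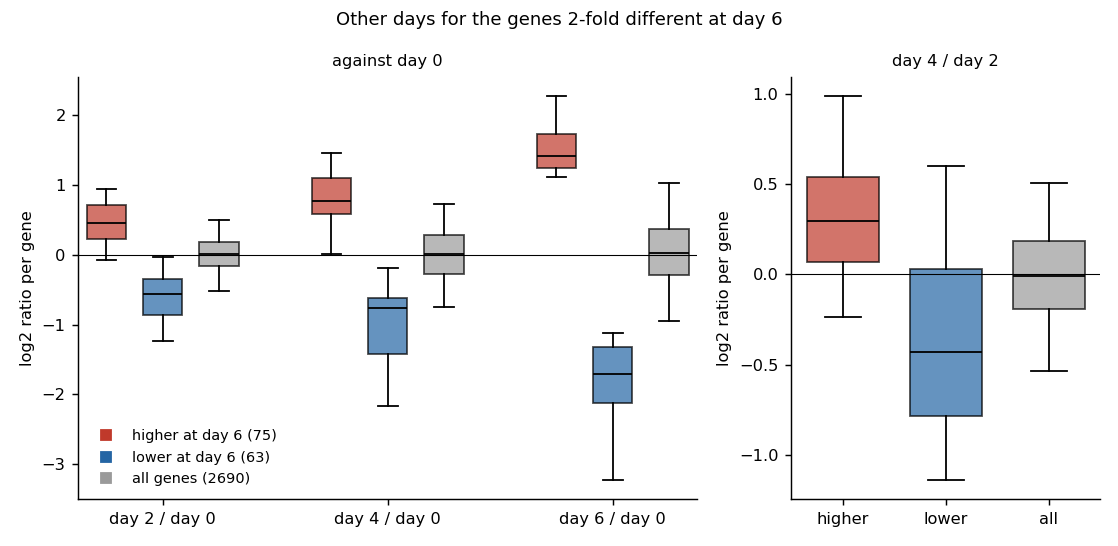
Log2 ratio per gene over day 0 at days 2, 4 and 6 (left) and of day 4 over day 2 (right) for the 75 higher genes (red), the 63 lower genes (blue) and all 2690 genes (grey). Boxes span the middle 50% of genes with the median as a line, and whiskers run from the 5th to the 95th percentile. The class medians move from 0.45 to 1.42 and from -0.56 to -1.71, while the median of all genes stays near 0.

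Cell type markers were read with any number of probe sets, taking each gene's brightest. At day 0 all 8 B lineage markers on the array were above the floor, among them CD79B, the beta chain of the B cell receptor complex, and BTK, the kinase downstream of it. On the day 6 array 6 of them were, and their summed signal, which adds probe sets of different genes and describes the list only, was 9439, 6236, 3520 and 2253 on the 4 arrays. Of the day 6 sum POU2AF1 made 1567, against 1757 at day 0, so it was nearly level while most others were lower. CD79B, with 1 probe set, read 2051, 1581, 1116 and 370.0, and BTK, also with 1, read 1167, 651, 333 and 71.3. Both went the way of CD74 and CD72 but are no members of the comparison, and PAX5, the B cell identity factor, read 84.9, 46.9, 57.4 and 56.8. Of 8 T cell markers 2, 2, 3 and 3 were above the floor on the 4 arrays. CD3D read 2382 at day 0 and 911 at day 6, and CD247 read 211 and 71.6. ZAP70 was above the floor only at day 4, at 78.0, and CD8A only at day 6, at 49.4. CD3E, CD4, CD28 and LCK were below it on all arrays. The sum of the 8 was 2684 at day 0 and 1097 at day 6. Of 5 macrophage and granulocyte markers 1 was above the floor on each array, CSF1R, the receptor for macrophage colony-stimulating factor, at days 0, 2 and 6 and MARCO, a scavenger receptor, at day 4. CSF1R read 56.5 at day 0 and 123 at day 6, and the sum of the 5 was 140 and 211. The sum of 8 fibroblast and endothelial markers was 179, 229, 531 and 1298, and 1, 1, 1 and 4 of them were above the floor. Of the day 6 sum LUM made 1069. It had 1 probe set, below the floor at day 0, and its log2 ratio of at least 4.56 lies above that of HPGDS. The others above the floor at day 6 were close to it, COL1A2 at 46.2, COL3A1 at 47.0 and PECAM1 at 48.4. PECAM1 had read 48.2 at day 0. COL1A1, DCN, POSTN and KDR were below the floor on every array. The part of other cells in any result was not tested. The 3' to 5' signal ratio of beta-actin, a measure of RNA quality, was 2.07 at day 0 and 2.22 at day 6, and that of GAPDH 0.937 and 0.880.

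By the RefSeq table of assembly GRCg7b, 2689 of the genes lie on a known chromosome. Of 260 genes on chromosome 2, 17 were higher and 6 lower, of 327 on chromosome 1, 13 and 9, and of 76 on chromosome 10, 5 and 0. These are 6.54% and 2.31%, 3.98% and 2.75%, and 6.58% and 0, against 2.79% and 2.34% of all genes. Chromosome 13 had 6.45% higher of 62 genes, and chromosomes 20 and Z had 5.71% and 4.40% lower of 70 and 91 genes. Chromosomes 18, 23 and 28, with 63, 44 and 47 genes, held no called gene, which with so few genes is no result about them. The median log2 ratio of a chromosome with 40 or more genes lay between -0.13 (chromosome 27) and 0.15 (chromosome Z).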

How the data were processed

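Polyadenylated RNA of the 4 cultures was made into biotinylated cRNA and put on the Affymetrix Chicken Genome Array, per the labels' protocols. The authors deposited linear intensities, 1 for each probe set on each array, made with GeneChip Operating Software 1.3, per the submitters' processing notes. Which signal algorithm and scaling they used is not stated in these sources, and the deposited medians of the 4 arrays were 31.2, 25.6, 31.9 and 28.2.

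From these, 96 control probe sets were left out of 38535. Each array was shifted on the log2 scale to the same median over the brighter probe sets, those whose mean reached the overall median, by factors of 0.859, 0.962, 1.02 and 1.19. After scaling, 37.1%, 36.1%, 40.6% and 41.6% of the probe sets lay above the floor of 45.5. The controls behind the floor had a 95th percentile of 24.6 at day 0 and 45.5 at day 6. The platform annotation gave the names: 27168 had 1 symbol, 177 had several and 11094 were not listed, so unnamed here. Of 12309 bright probe sets, 10349 had 1 symbol. A gene's value is the median of its bright probe sets.

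The contrast of day 6 with day 0 has 1 array a side and so no test, and a trend over the 4 days was not fitted here. Groups are described by counts and medians, to be read against the 2.79% higher, the 2.34% lower and the median of all genes. The members, the 50 gene lists and the naming rule were chosen with earlier results of these data known. A list entry with no symbol of its own on the array was taken through the 1 gene that has it as a synonym. Lists thus hold some genes under another symbol, for example GSTO2 for GSTO1, KIF4B for KIF4A, WDR5B for WDR5 and HSPB9 for HSP25. Whether each is the gene meant was not checked further, and only a few matches seen to belong to another gene were left out. The text names ACTR6, the 15 genes per direction with the largest smallest ratio over their probe sets, the 5 brightest per direction, up to 4 called members of each list and the 5 widest opposite pairs, leaving out clone-like or locus symbols. Other members named beside them, called or not, were chosen after their values were seen. The ratio step was tested on simulated data with known folds. A planned count of promoter motifs was not run, since no promoter sequences were at hand. Python 3.11.15, numpy 2.4.6, pandas 2.3.3 and matplotlib 3.10.9 were used. Alternatives were 5 scalings, 2 floors, 2 brightness filters, 2 rules of agreement, 2 thresholds and the removal of probe sets marked as shared.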

Additional observations from a re-analysis of the deposited data

How the results depend on the processing

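The counts of genes with every probe set 2-fold higher or lower, 75 and 63, moved with the processing. Higher and lower counts were 30 and 222 in the deposited values without scaling and 38 and 155 with the median of all probe sets. They were 168 and 102 with a floor at the 40th percentile of all values, which let 4241 genes in. They were 145 and 121 when the median of a gene's probe sets had to be 2-fold, and 120 and 90 when at least 2 probe sets had to be and none opposed. Without probe sets marked as matching several transcripts they were 24 and 18 of 866 genes. These are 2.77% and 2.08%, near the 2.79% and 2.34% reported, so mainly the number of genes examined fell. A 1.5-fold threshold gave 191 and 171, and a 3-fold threshold 12 and 26. In alternatives added after seeing the data, genes with no probe set below the floor on either array numbered 47 higher and 27 lower. Genes whose bright probe sets carry 2 or more cluster names numbered 58 and 42 of 2101. Of the 75 higher genes 30 remained without scaling, 38 with the median of all probe sets, 62 with the 75th percentile, 67 with quantile normalization, 75 with the spiked controls and 63 with the lower floor. Of the 63 lower genes 60, 60, 62, 59, 44 and 53 remained. Among 66 named called genes none changed direction under the 5 scalings or the 2 floors. Nor did any of the 54 that still had a probe set without the shared ones. The choice of the genes made this all but certain, since all their bright probe sets lay at least 2-fold from day 0 on the same side. It is therefore no check of their directions. The median of a gene's probe sets fell short of 2-fold for 11 without scaling, 7 with the median of all probe sets and 9 with the higher floor. This is milder than the rule on every probe set. The cause of these moves was not tested beyond the construction of each alternative. Signal over background limits the dim genes, whose ratios are bounds. No paired analysis was possible because each day has 1 array.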

Other observations

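Genes that build or trim the sugar chains of secreted and membrane proteins were present among the higher genes, in no list and chosen after their values were seen, so their number is no measure of the pathway. FUT8, which adds the core fucose of N-glycans, read 878, 1032, 1481 and 1950.5 at days 0, 2, 4 and 6 with one probe set, 2.22-fold higher, and was 2.07-fold higher with the other. MAN2A1, a Golgi mannosidase, read 873, 948, 1042 and 1817 with one probe set and was 2.08-fold and 2.30-fold higher. EXT1, a heparan sulfate polymerase subunit, was 2.85-fold and at least 3.50-fold higher. UGGT2, a glucosyltransferase of the glycoprotein folding cycle family, was 2.67-fold and at least 2.57-fold higher. GFPT2, which feeds the hexosamine pathway, was 2.11-fold and 2.41-fold higher. PIGU, a subunit of the transamidase that attaches GPI anchors, was 2.77-fold and 2.93-fold higher, and PIGN, an enzyme of GPI anchor synthesis, at least 2.13-fold and at least 2.89-fold. For each of these 7 genes every bright probe set was also higher at day 4 than at day 0, by 1.12-fold to at least 3.78-fold. This is no trait of the 7, since 71 of the 75 higher genes had a median above day 0 at day 4. It also shares the day 0 array by which the genes were chosen.

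Enzymes of small molecules stood among the lower genes, likewise chosen after their values were seen. GART, which carries 3 steps of purine synthesis, read 471, 387, 163 and 116 with one of its 3 probe sets, and the 3 were 2.17-fold to 4.05-fold lower. BPNT1, a nucleotidase of sulfate metabolism, read 1076, 732, 675 and 260.1 with one probe set, 4.14-fold lower, and was 2.90-fold lower with the other. GCDH, glutaryl-CoA dehydrogenase of lysine breakdown, was 3.12-fold and 4.19-fold lower. KLF6, a Krüppel-like factor, was among the higher genes with 3 probe sets from 2.70-fold to 3.70-fold. Its probe sets stood at log2 ratios of -0.08, 0.39 and 0.20 at day 2 and 1.46, 1.46 and 1.33 at day 4, where the 75 higher genes had medians of 0.45 and 0.78.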
